A study of Mus musculus with 8 samples.

Results

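The genes described here encode the enzymes that copy DNA in S phase, together with those that supply nucleotides and package the new strands. They were followed in hepatic stellate cells of the mouse, liver pericytes that store vitamin A and turn into matrix-producing myofibroblasts when activated. Members were chosen by name from knowledge of the replication machinery, with earlier results of these data known. Of 48 listed genes, 47 had a row among the 14162 genes of the deposited table, and Orc1 was not analysed here. Each of 4 groups had libraries a and b. The cells were quiescent in the first group and activated in the other three, which received no microRNA, miR-15a or a control microRNA. The series was made to find likely targets of miR-15a. All groups carry the same cell type label. The mice are given as C57BL/6J and SCID, with no strain, sex or age assigned to any library, and the labels say neither how cells were activated nor how the microRNAs were given. Whether libraries a and b came from different animals or cultures is not stated. The p-values given here therefore reflect the spread between these libraries alone, and that spread may be technical.

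Replication is prepared in G1, when the origin recognition complex, CDC6 and CDT1 load the MCM hexamer onto origins. In S phase the kinase CDC7 and the factors CDC45 and GINS turn that hexamer into an active helicase, and primase and polymerases alpha, delta and epsilon copy the strands with the clamp PCNA and its loader RFC. Most of these genes are classical targets of E2F transcription factors, which are held back by RB in resting cells. Stellate cells of a healthy liver rarely divide, and activation is known to bring them into the cell cycle. The miR-15/16 family is known for restraining the passage from G1 into S phase.

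MiR-15a and its close relatives share bases 2 to 8, the seed that pairs with target transcripts and is shown in capitals. The mature mouse sequences are from RefSeq on GRCm38.p6, and mmu-miR-15a-5p lies on chromosome 14 at chr14:61632075-61632096, minus strand.
mmu-miR-15a-5p: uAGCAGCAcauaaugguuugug
mmu-miR-15b-5p: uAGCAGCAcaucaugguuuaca
mmu-miR-16-5p: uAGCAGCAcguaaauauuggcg
The letters that pair with this seed, TGCTGCT, were found in the longest annotated 3′ UTR of 7 of 47 replication genes, or 14.9% (95% Wilson interval 7.41 to 27.7). Over all tested genes with an annotated 3′ UTR the share was 24.4%, in 2895 of 11866 genes. The median 3′ UTR was 780 bases long in the members and 1194.5 bases over all tested genes. Members with a site were Orc2, Cdc6, Cdc7, Gins2, Rfc1, Rpa1 and Chaf1a, each with 1. Only Gins2 and Rfc1 had the site followed by A (4.26% of members and 4.55% of tested genes). The windows below, read from GENCODE M21 transcripts on GRCm38, show the site in capitals in the genes with the best match or the largest change.
Chaf1a (chr17:56069524-56069553, plus strand): cggcatccaacagcTGCTGCTtgtgccgcg
Gins2 (chr8:120580996-120581025, minus strand): gaaagagtacagacTGCTGCTataagtggc
Rfc1 (chr5:65262335-65262364, minus strand): tgtcctgaccacatTGCTGCTataggtagt
A match is a string of letters and was not tested as a binding site.

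Promoters are shown because most of these genes are described as classical E2F targets. A promoter from RefSeq (GRCm38.p6, 250 bases before to 50 after the annotated start) was matched for 40 of the 47 genes. The octamers TTTCCCGC, TTTCGCGC, TTTGCCGC and TTTGGCGC, forms of the E2F recognition motif, were sought on both strands. They can overlap each other on opposite strands. At least 1 octamer lay in the promoter of 14 of 40 members, or 35.0% (95% Wilson interval 22.1 to 50.5), against 4.52% of 9797 tested genes with a promoter and 2.60% of all 27025 genes in the promoter table. When only the 250 bases before the start were searched, the shares were 20% of members and 3.79% of tested genes. The windows below lie before the start and have the octamer in capitals, on either strand. Of the 8 members with an octamer there, Rfc3 and Pola1 are not shown. Neither was called on activation, nor were Mcm7 and Cdc6, which are shown.
Mcm5 (chr8:75109340-75109379, plus strand): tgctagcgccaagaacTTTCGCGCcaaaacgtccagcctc
Mcm6 (chr1:128359729-128359768, minus strand): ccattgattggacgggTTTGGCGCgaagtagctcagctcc
Mcm7 (chr5:138172025-138172064, minus strand): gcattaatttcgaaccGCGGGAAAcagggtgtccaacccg
Cdc6 (chr11:98907997-98908036, plus strand): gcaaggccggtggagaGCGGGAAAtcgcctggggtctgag
Gins3 (chr8:95633502-95633541, plus strand): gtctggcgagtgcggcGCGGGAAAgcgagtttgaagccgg
Uhrf1 (chr17:56304112-56304151, plus strand): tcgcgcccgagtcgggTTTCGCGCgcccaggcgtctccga
No octamer was found in the windows of Rrm1, Rrm2, Tyms, Pcna or E2f1, which says only that these letters are not there.

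**Figure D1:**
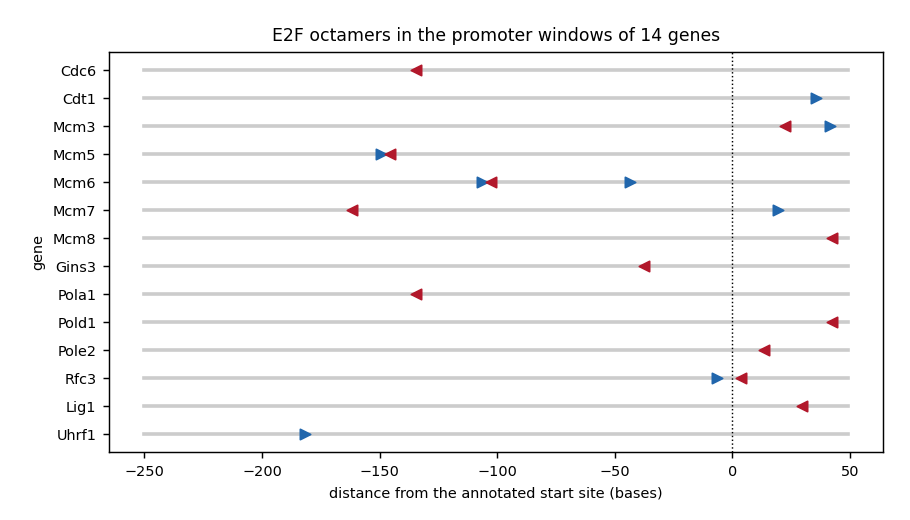
Position of E2F octamers in the promoter windows of the 14 members that hold one. The horizontal axis is the distance in bases from the annotated start, the grey bar is the window searched, and arrows to the right and left mark octamers on the gene's own and on the opposite strand. Mcm6 holds 3 octamers, and those of Mcm5 and the first pair of Mcm6 overlap.

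Values are the authors' deposited scores, which behave as quantile-normalized numbers and not as read counts, so the depth of each library is unknown. Member scores ran from 4 to 2275, far under the ceiling of 125636 that all libraries share. Scores of different genes are not scaled to gene length and are not compared here. Fold changes are on the log2(score + 5) scale with limma's standard error (SE), which understates the change of low genes. Genes were called where the p adjusted over all 13150 genes tested was under 0.05. All 47 members passed the filter of at least 10 in at least 2 libraries. Gins2 passed it only through the activated groups, and Mcm8, at 7 and 16 in quiescent libraries, also needed them to pass. Calls of Gins2 and Mcm8 against quiescent cells therefore give no independent support for a rise. Reads of genes that share exons on opposite strands cannot be told apart without strand, which the sources used here do not give. Of the exonic bases, 78.8% of Fen1 lie under Gm10143, 67.3% of Gins2 under Gse1, 52.5% of Chaf1a under Ubxn6 and 29.8% of Orc2 under Nif3l1, so values of these genes are uncertain. Pcna and Tyms have pseudogenes of their own name, which could take part of their reads.

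The labelled cell states were checked against markers. Acta2, the smooth muscle actin of myofibroblasts, had scores of 43 and 51 in quiescent cells and of 58193 or 125636 in all other libraries. Of 16 stellate quiescence markers 13 were measured, and Lrat, Gfap and Lhx2 were not among them. Reln, a glycoprotein of quiescent stellate cells, was at 7724 and 8724 in quiescent libraries and at most 82 elsewhere. Other liver cells contributed unequally. The summed score of 20 endothelial markers was 214243 to 285422 in quiescent, 1380 to 1606 in activated, 14183 to 14255 in miR-15a and 2038 to 2600 in control microRNA libraries. For 18 measured macrophage markers of 20 it was 146658 to 168119, 2055 to 2274, 14111 to 15509 and 2603 to 2856 in the same order. For 15 measured hepatocyte markers of 18 the sum was 14996 to 17668 in quiescent, 426 to 580 in activated and 1761 to 2433 in miR-15a libraries, and 325 and 1611 in the control microRNA libraries. Pecam1, Flt4 and Marco were at 0 in activated library b, and Apoa1, Fgb and Apoc3 in control library a. Of 12 lymphocyte markers 2 were measured, with sums of 1 to 23. The groups also differed in sex-linked genes: Xist was at 8724 in both quiescent libraries, 169 and 21 in activated, 3373 in both miR-15a and 3373 and 5027 in control microRNA libraries. Ddx3y, which is Y-linked, was at 40 to 44, 2570 to 2606, 1006 to 1046 and 1268 to 1282. Against activated cells, Xist was higher by 5.65 ± 0.73 in the miR-15a group and by 5.94 ± 0.73 in the control microRNA group on the log2 scale, and Ddx3y was lower, at -1.33 ± 0.07 and -1.02 ± 0.07. A change of cell state or an effect of a microRNA therefore cannot be told apart from a difference in animals or in the mix of cells. This holds for comparisons with the quiescent group and for those of either microRNA group with activated cells. It also holds for miR-15a against the control microRNA, where the endothelial and macrophage sums differed and Ddx3y was lower (-0.31 ± 0.07). In bulk RNA, fewer cells of a type and less RNA per cell cannot be told apart either.

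**Figure D2:**
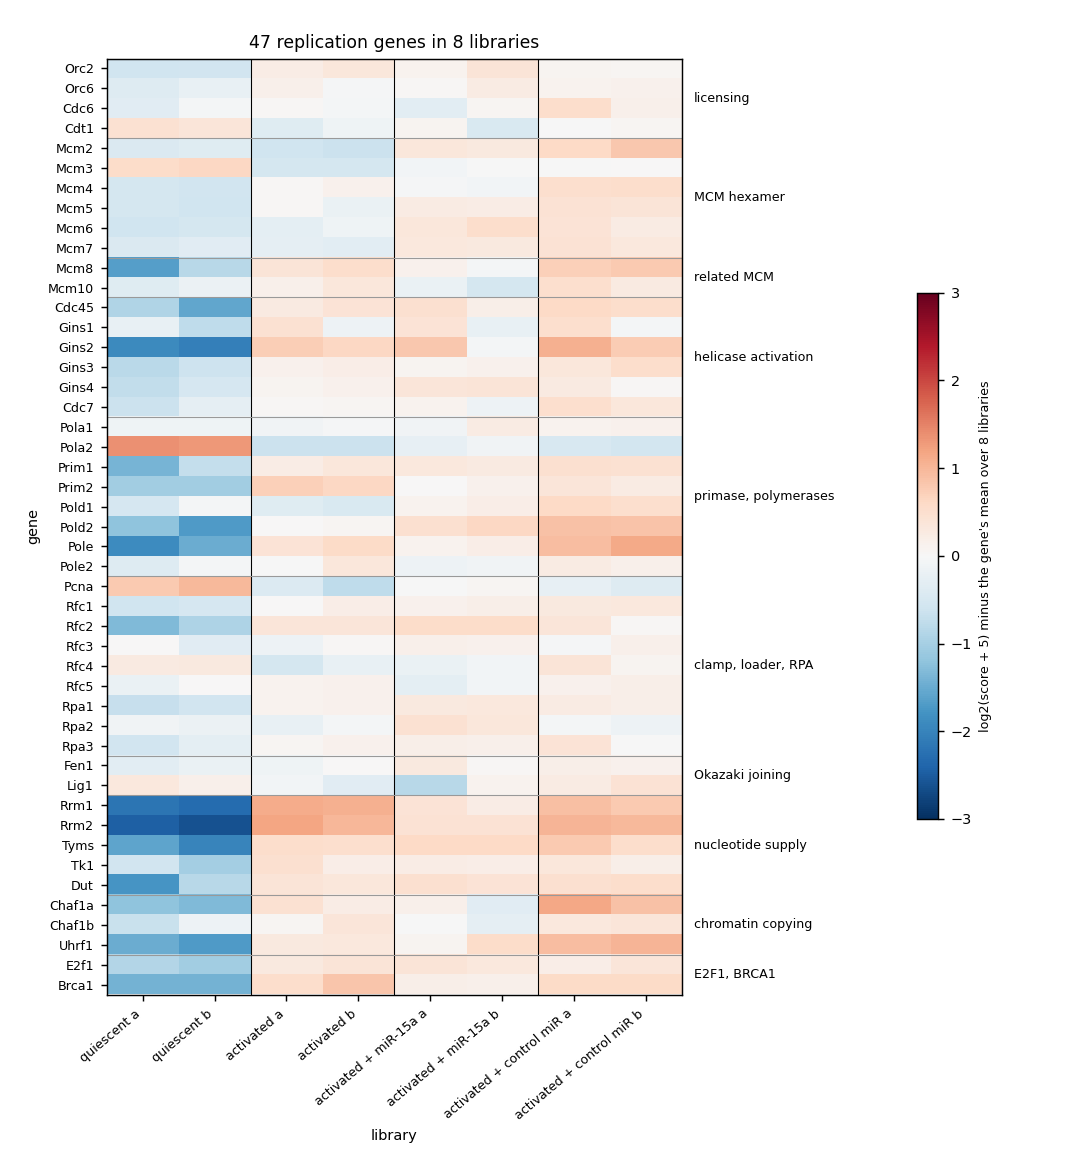
Score of each of the 47 measured replication genes in each of the 8 libraries, as log2(score + 5) minus the gene's mean over the libraries, with genes in rows by role and libraries in columns. Most rows are blue (low) in the quiescent columns, Pola2, Pcna and Mcm3 are red (high) there, and Rrm1 and Rrm2 span the widest range.

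Most replication genes were higher in activated than in quiescent cells, and the largest increases were in ribonucleotide reductase genes, which supply nucleotides. Of 47 members 30 rose and 5 fell, and 12 were not called. That is 63.8% higher and 10.6% lower, against 45.4% called higher and 34.1% called lower over all genes tested. The median log2 fold change was 0.63 in the members and 0.21 over all genes. With median-ratio scaling, which moved the median of all genes to -0.06, 23 members rose and 7 fell, and the split over all genes turned to 4775 higher and 5414 lower. Without activated library a, 3 members were called lower. No called member changed direction under any of 16 alternatives.

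All 5 genes of nucleotide supply rose. Rrm1 and Rrm2 encode the large and small subunits of ribonucleotide reductase, which makes deoxyribonucleotides. Rrm2 was at 64 and 56 in quiescent libraries and at 848 and 743 in activated ones, a log2 fold change of 3.62 ± 0.10 (SE; adjusted p = 3.5e-08, limma), the largest of any member. Rrm1 went from 226 and 206 to 2275 and 2204 (3.35 ± 0.08, adjusted p = 2.7e-08). The activated libraries of both genes lay far above the quiescent ones. Tyms, thymidylate synthase, went from 78 and 58 to 352 and 348 (2.30 ± 0.14). Dut, the dUTPase that keeps uracil out of DNA, went from 50 and 101 to 240 and 232 (1.66 ± 0.26), with a wide gap between its quiescent libraries. Tk1, the thymidine kinase of S phase, rose by a smaller 1.14 ± 0.17, from 90 and 65 to 194 and 158.

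Licensing genes were divided. Orc2, a subunit of the origin recognition complex, rose from 237 and 242 to 426 and 461 (log2 fold change 0.87 ± 0.10, adjusted p = 1.1e-04), beside its overlapping neighbour Nif3l1, which rose by 1.45 ± 0.15. Orc6 rose by 0.36 ± 0.12, a call that was lost with median-ratio scaling and without quiescent library a or activated library a (adjusted p up to 0.55). Cdt1, the MCM loader, fell, from 179 and 170 to 100 and 118 (-0.66 ± 0.18, adjusted p = 0.010), and the call was lost without quiescent library a or activated library a (adjusted p up to 0.064). Cdc6, its partner in loading, was at 49 and 60 against 65 and 60 and was not called (0.19 ± 0.20).

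Subunits of the MCM hexamer, which act as a single ring, did not move as a block. Mcm4 rose from 202 and 196 to 302 and 321 (log2 fold change 0.63 ± 0.08, adjusted p = 1.4e-04). Mcm5 and Mcm6 rose by 0.48 ± 0.10 and 0.35 ± 0.10, and neither was called with median-ratio scaling (adjusted p = 0.077 and 0.49). Mcm6 was also not called without quiescent library a or activated library b. Mcm3 fell, from 530 and 558 to 248 in both activated libraries (-1.12 ± 0.07, adjusted p = 3.4e-06). Mcm2 (207 and 218 against 184 and 177, adjusted p = 0.053) and Mcm7 (216 and 228 against 242 and 232, adjusted p = 0.33) were not called. Outside the ring, Mcm8, a helicase subunit of homologous recombination, went from 7 and 16 to 44 and 49 (1.70 ± 0.26). Mcm10, which helps start the helicase, went from 32 and 37 to 48 and 55 (0.52 ± 0.18), and its call was lost with median-ratio scaling and without quiescent library a or either activated library (adjusted p up to 0.21).

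Of 6 genes of helicase activation 5 rose. Gins2, a GINS subunit, was at 5 and 4 in quiescent and at 58 and 53 in activated libraries (log2 fold change 2.67 ± 0.28). Its overlapping neighbour Gse1 moved the other way, by -2.01 ± 0.33. Cdc45, the third part of the active helicase, went from 41 and 24 to 98 and 109 (1.57 ± 0.23). Gins3 and Gins4 rose by 0.87 ± 0.15 and 0.71 ± 0.13, and Cdc7 by 0.50 ± 0.18. The call of Cdc7 was lost in 6 of 16 alternatives, among them leaving out quiescent library a or either activated library (adjusted p up to 0.25). Gins1 was at 34 and 22 against 58 and 36 and was not called (adjusted p = 0.11), though 1 of 16 alternatives called it. Its library a lay well above library b in each of the 4 groups, with 56 and 34 for miR-15a and 60 and 39 for the control microRNA.

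Calls differed among the subunits of single polymerases, and polymerase alpha had subunits called in both directions. Polymerase alpha carries primase, and both primase genes rose: Prim2 from 84 in both libraries to 295 and 274 (log2 fold change 1.70 ± 0.10, adjusted p = 2.3e-06) and Prim1 from 28 and 48 to 96 and 104 (1.33 ± 0.21). Pola2, the accessory subunit of the same enzyme, fell from 244 and 232 to 56 in both activated libraries, the largest decrease of any member (-1.99 ± 0.12, adjusted p = 2.4e-06). The catalytic subunit Pola1 was at 234 and 232 against 239 and 251 and was not called (0.07 ± 0.12). For polymerase delta, Pold2 rose from 36 and 24 to 90 and 94 (1.49 ± 0.18), while the catalytic Pold1, at 175 and 238 against 192 and 182, was not called (-0.12 ± 0.14). For polymerase epsilon, the catalytic Pole rose from 26 and 36 to 148 and 166 (2.18 ± 0.17), and Pole2, at 52 and 67 against 69 and 90, was not called (0.39 ± 0.18).

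The clamp was lower after activation. Pcna, the sliding clamp that also serves DNA repair, was at 1082 and 1244 in quiescent and at 476 and 368 in activated libraries (log2 fold change -1.46 ± 0.13, adjusted p = 2.2e-05). Of its loader, Rfc2 rose from 56 and 76 to 192 and 193 (1.49 ± 0.17) and Rfc1 by 0.65 ± 0.09, whereas Rfc4 fell from 90 and 92 to 50 and 63 (-0.65 ± 0.17, adjusted p = 0.0080; 0.050 without activated library a). Rfc3 (88 and 68 against 78 and 89) and Rfc5 (86 and 100 against 106 and 108) were not called. Of the RPA trimer that coats single strands, Rpa1 rose from 506 and 554 to 891 and 896 (0.75 ± 0.07, adjusted p = 2.2e-05) and Rpa3 by 0.53 ± 0.15. The call of Rpa3 was lost with median-ratio scaling and without quiescent library a or activated library b (adjusted p up to 0.14). Rpa2 was at 106 and 102 against 98 and 110, with overlapping libraries. The flap nuclease Fen1 (174 and 188 against 200 and 219) and the ligase Lig1 (78 and 69 against 58 and 47), which finish Okazaki fragments, were not called.

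All 3 genes that copy chromatin rose, as did E2f1 and Brca1. Uhrf1, which guides maintenance methylation to new strands, went from 41 and 35 to 154 and 155 (log2 fold change 1.89 ± 0.17, adjusted p = 2.2e-05). Chaf1a, the large subunit of the histone chaperone CAF-1, went from 22 and 20 to 80 and 68 (1.60 ± 0.21), and Chaf1b rose by 0.63 ± 0.21. The call of Chaf1b was lost with median-ratio scaling, in the 2-group fit and without quiescent library a or activated library b (adjusted p up to 0.15). E2f1, an activating E2F, went from 48 and 42 to 114 and 121 (1.29 ± 0.13). Brca1, which protects stalled forks, went from 32 in both libraries to 139 and 173 (2.11 ± 0.14, adjusted p = 3.4e-06).

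**Figure D3:**
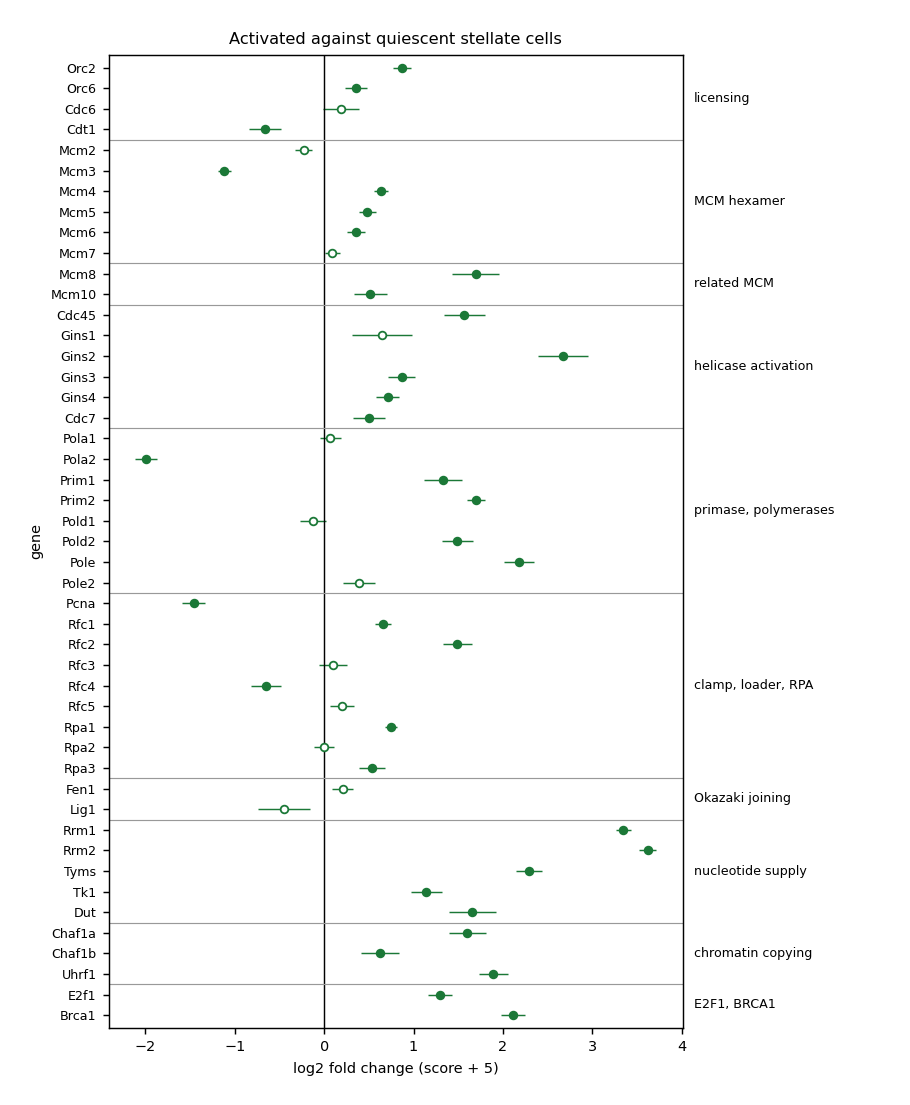
Log2 fold change of activated against quiescent cells for each of 47 replication genes, in rows by role, with bars of 1 SE. Filled points were called (adjusted p under 0.05, limma) and open points were not. All 5 genes of nucleotide supply lie at or above 1.14, while Pola2, Pcna, Mcm3, Cdt1 and Rfc4 lie below 0 and were called.

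The median change of members with an E2F octamer was below that of members without. Of the 14 with one, 5 rose, 2 fell and 7 were not called, with a median log2 fold change of 0.14. Of the 26 without, 19 rose, 3 fell and 4 were not called, with a median of 0.70. Over all genes tested 45.4% were called higher and 34.1% lower, with a median of 0.21, which lies above the median of members with an octamer. These are descriptions of the matched promoters and were not tested.

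Other genes of the cell cycle, on lists with no member, gave a background to this. Of 44 measured genes of 45 on a list of further replication factors, 24 rose and 9 fell. Top2a, the topoisomerase that untangles sister strands, rose by 3.43 ± 0.11, and Pold4, a small polymerase delta subunit, by 2.25 ± 0.09. Dck, a salvage kinase for deoxynucleosides, fell by 2.36 on the log2 scale and Timeless, of the fork protection complex, by 2.27. Pold3, Top1, Mcm9, Samhd1, Slbp, Shmt1 and Nasp fell as well, by 0.79 (Nasp) to 1.84 (Pold3). Of 29 measured G1/S regulators of 31, 17 rose and 7 fell. Ccne1, cyclin E1, went from 12 and 14 to 170 and 175, and Cdkn1c, the CDK inhibitor p57, from 111 and 134 to 4 and 2. Of 20 genes of the replication stress response 10 rose and 4 fell, with Exo1, a resection nuclease, up by 2.65 ± 0.17. All 30 mitotic genes rose, with a median of 3.22 against 0.63 in the replication genes, a difference between lists that was not tested. All these lists stood against the same 45.4% of genes called higher and 34.1% called lower. The shares higher were 54.5% of further replication factors, 58.6% of G1/S regulators and 50% of stress genes, the last near that of all genes. The shares lower were 20.5%, 24.1% and 20% in the same order.

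Few replication genes were called different between miR-15a and the control microRNA: 8 of 47 members were lower, 1 was higher and 38 were not called. The shares, 17.0% lower and 2.13% higher, stand against 15.4% called lower and 14.4% called higher over all genes. The share of members called lower was thus near that of all genes. The member median was -0.21 and that of all genes -0.07. The 8 lower genes were Rrm1, Rrm2, Mcm2, Mcm4, Mcm10, Pole, Chaf1a and Uhrf1, and the higher one was Rpa2. The summed endothelial, macrophage and hepatocyte markers, given above, were also higher with miR-15a than with the control microRNA in both libraries, and Ddx3y was lower (-0.31 ± 0.07). An effect of miR-15a cannot be told apart from a difference in cell mix or animals here, and their part in the values of the members was not tested. Fitted on these 2 groups alone, 5 members were called lower. Without miR-15a library a or control library b, 0 members were called higher, and without activated library a or b, 2 were. None of the 9 called changed direction in any alternative.

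Both ribonucleotide reductase genes were lower with miR-15a. Rrm1 was at 1380 and 1222 with miR-15a and at 1958 and 1794 with the control microRNA (log2 fold change -0.53 ± 0.08, adjusted p = 0.0038). Rrm2 was at 498 and 504 against 757 and 725 (-0.56 ± 0.10, adjusted p = 0.0052). Their libraries did not overlap between groups, as was the case for 38.2% of all tested genes in the lower and 27.7% in the higher direction. Both genes stayed far above the quiescent 206 to 226 and 56 to 64. The other genes of nucleotide supply were not called: Tyms was at 368 and 372 against 422 and 354, Tk1 at 162 and 158 against 176 and 155, and Dut at 260 and 246 against 256 and 267.

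Of the MCM hexamer, Mcm4 was at 285 and 277 with miR-15a and at 418 and 426 with the control microRNA (log2 fold change -0.58 ± 0.08, adjusted p = 0.0016, the smallest of any member). Mcm2 was at 357 and 347 against 432 and 498 (-0.39 ± 0.09, adjusted p = 0.018), and its call was lost in the 2-group fit and without either miR-15a library or control library b (adjusted p up to 0.096). Mcm3, Mcm5, Mcm6 and Mcm7 were not called, with values from -0.18 (Mcm5) to 0.11 (Mcm6). Mcm10 was at 36 and 28 against 62 and 52 (-0.75 ± 0.18, adjusted p = 0.020), and its call was lost in the 2-group fit and without miR-15a library b or control library a (adjusted p up to 0.10). Mcm8, at 36 and 31 against 56 and 59, had a change of the same size and a wider error (-0.70 ± 0.26) and was not called.

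Chaf1a showed the largest difference of any member. It was at 64 and 44 with miR-15a and at 135 and 110 with the control microRNA (log2 fold change -1.13 ± 0.21, adjusted p = 0.0066; 0.053 in the 2-group fit). Ubxn6, whose exons it overlaps on the other strand, was at 684 and 670 against 508 and 492, the opposite direction. Uhrf1 was at 132 and 184 against 240 and 255 (-0.65 ± 0.17, adjusted p = 0.024), a call lost in the 2-group fit and without miR-15a library a or either control library (adjusted p up to 0.11). Chaf1b, at 62 and 51 against 80 and 82, was not called (-0.49 ± 0.21). Pole was at 118 and 126 against 212 and 246 (-0.88 ± 0.17, adjusted p = 0.0074), and the other 7 genes of primase and polymerases were not called. Pola2, low after activation, was at 76 and 84 against 64 and 60 (0.34 ± 0.12, adjusted p = 0.069).

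Rpa2, the regulatory subunit of RPA, was the only member called higher. It was at 160 and 148 with miR-15a and at 110 and 103 with the control microRNA (log2 fold change 0.51 ± 0.12, adjusted p = 0.016). The other groups lay near the control, at 106 and 102 in quiescent and 98 and 110 in activated cells. The call was lost without miR-15a library a or control library b (adjusted p up to 0.078). Its partners Rpa1 and Rpa3 were not called (0.08 ± 0.07 and -0.04 ± 0.15), nor was Pcna, at 624 and 660 against 528 and 482 (0.34 ± 0.13, adjusted p = 0.084). None of the 4 licensing genes, the 6 genes of helicase activation, Fen1, Lig1, E2f1 or Brca1 was called. Cdc6 was at 50 and 66 against 93 and 70, Cdc7 at 66 and 54 against 89 and 79, and Gins3 at 48 and 50 against 59 and 68. Brca1 came closest, at 107 and 106 against 144 in both control libraries (-0.42 ± 0.14, adjusted p = 0.054). E2f1 was at 122 and 115 against 106 and 120.

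Of the 7 members whose 3′ UTR holds the seed match, Chaf1a alone was called against the control microRNA, as lower, and none was called against activated cells. Over all genes 15.4% were called lower and 14.4% higher against the control microRNA, and 21.6% and 16.8% against activated cells. So few genes cannot show whether the match goes with a change. Gins2, with the match followed by A, was at 61 and 31 against 73 and 59 (log2 fold change -0.54 ± 0.28), and its miR-15a libraries lay far apart. Rfc1, the other gene with that match, was at 347 and 362 against 392 and 396 (-0.15 ± 0.09). Orc2 (0.18 ± 0.10) and Rpa1 (0.08 ± 0.07) lay above 0, and Cdc6 (-0.46 ± 0.20) and Cdc7 (-0.46 ± 0.18) below it. The other 7 genes called lower, Rrm1 and Mcm4 among them, hold no such match in the 3′ UTR searched.

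**Figure D4:**
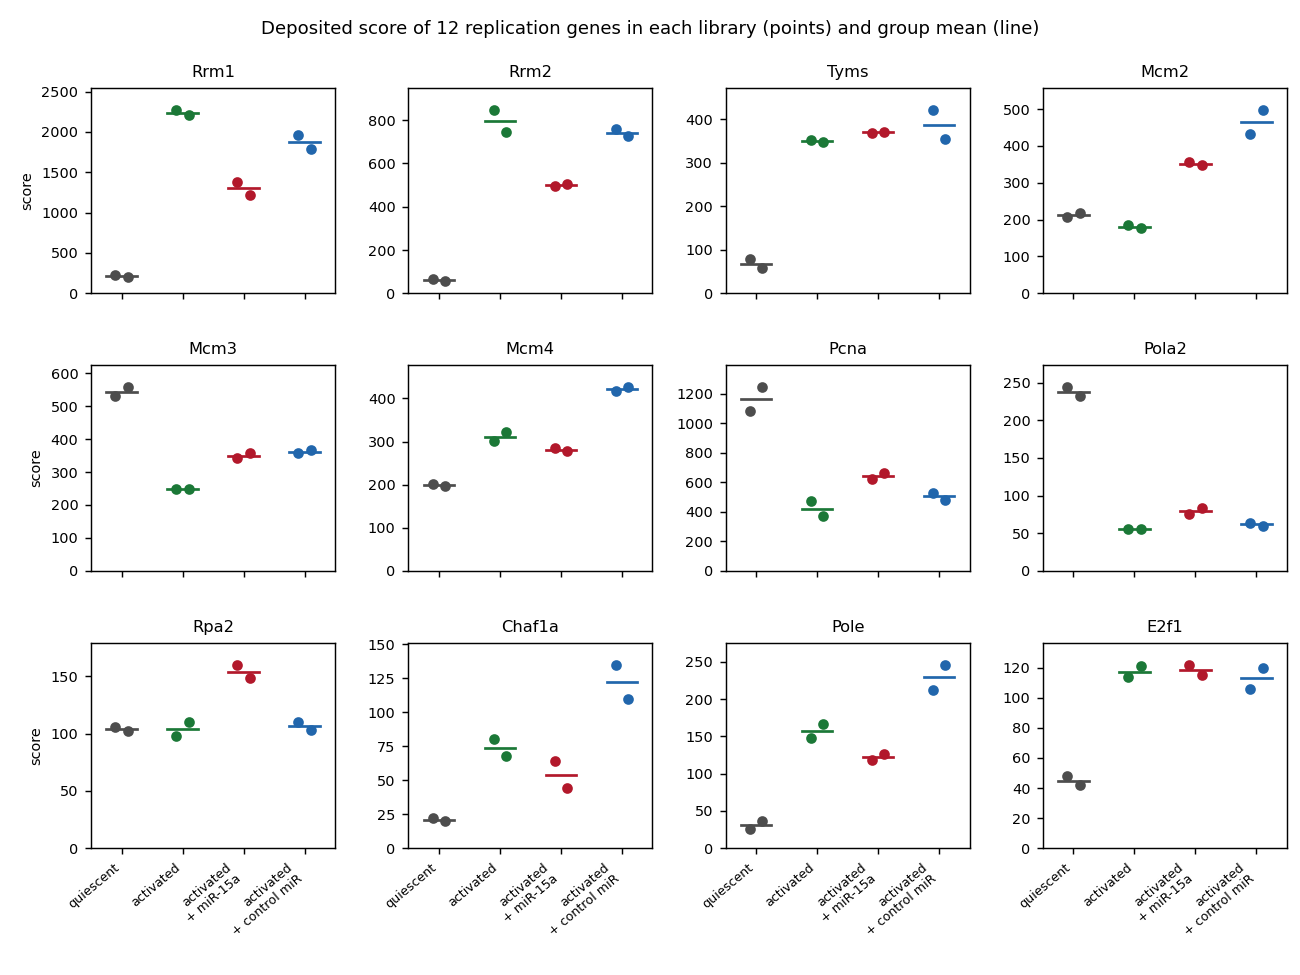
Deposited score (vertical axis, from 0) of 12 replication genes in each of the 4 groups; points are the 2 libraries and the line is their mean. Rrm1 and Rrm2 lie between quiescent and activated levels with miR-15a, Mcm2 is highest in the control microRNA libraries (432 and 498), and Mcm3, Pcna and Pola2 are highest in quiescent cells.

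The control microRNA group was itself compared with activated cells, and every subunit of the MCM hexamer was higher in it. This comparison and the next share libraries with the previous one. Xist and Ddx3y differed between the groups compared in both, as given above. With the control microRNA 9 members were higher than in activated cells and none was lower, or 19.1% and 0%, against 7.18% called higher and 6.61% called lower over all genes. At an unadjusted p under 0.05 in limma the counts were 12 higher and 2 lower. All 6 subunits of the MCM hexamer were higher. Mcm2 rose from 184 and 177 to 432 and 498 (log2 fold change 1.34 ± 0.09, adjusted p = 4.0e-04), and the others by 0.43 ± 0.08 (Mcm4) to 0.67 ± 0.08 (Mcm7). Mcm4, Mcm5 and Mcm6 each lost the call in the 2-group fit and in 3 of the 4 fits that left out an activated or control library (adjusted p up to 0.11). Pold1 went from 192 and 182 to 381 and 355 (0.96 ± 0.14, adjusted p = 0.0074; 0.057 without activated library b), Pold2 from 90 and 94 to 169 and 166 (0.83 ± 0.18; adjusted p up to 0.11 without an activated or control library) and Uhrf1 from 154 and 155 to 240 and 255 (0.66 ± 0.17, adjusted p = 0.042), a call lost in 8 of 16 alternatives, the replicate block and each library left out of the quiescent, activated or control group among them. Mcm2 was the only one of the 9 called in all 16. In the 2-group fit, which leaves fewer degrees of freedom, 3 members were called higher. Without activated library b 3 were, and without activated library a, control library a or control library b 5 were.

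With miR-15a, 9 members were higher and 5 lower than in activated cells, or 19.1% and 10.6%, against 16.8% and 21.6% over all genes. With median-ratio scaling 13 were higher and 3 lower, and over all genes the split turned from 2204 higher and 2841 lower to 3113 and 1644. The 5 lower genes were Rrm1, Rrm2, Mcm10, Prim2 and Brca1. Rrm1 fell from 2275 and 2204 to 1380 and 1222 (log2 fold change -0.78 ± 0.08, adjusted p = 4.4e-04) and Rrm2 from 848 and 743 to 498 and 504 (-0.66 ± 0.10, adjusted p = 0.0019). Ribonucleotide reductase genes were thus lower with miR-15a in both comparisons, which share the miR-15a libraries. Prim2 fell from 295 and 274 to 179 and 194 (-0.60 ± 0.10). It was also below activated cells with the control microRNA, at 230 and 210 (-0.36 ± 0.10, adjusted p = 0.054). Mcm10 (-0.62 ± 0.18) and Brca1 (-0.52 ± 0.14) were not called with median-ratio scaling. Without activated library b or miR-15a library b, 3 members were called lower, Mcm10 and Brca1 not among them.

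The 9 higher genes were Mcm2, Mcm3, Mcm5, Mcm6, Mcm7, Pold1, Pola2, Pcna and Rpa2. Mcm2 went from 184 and 177 to 357 and 347 (log2 fold change 0.94 ± 0.09, adjusted p = 2.9e-04). Mcm3, at 342 and 357, and Pcna, at 624 and 660, rose by 0.49 ± 0.07 and 0.61 ± 0.13. Pola2 rose by 0.48 ± 0.12. These last 3 are genes that fell on activation, and with miR-15a they stood between the activated and quiescent levels. Markers of other liver cells stood between these levels too: 19 of 20 endothelial and all 18 measured macrophage markers were higher with miR-15a than in activated cells. Their part in the values of Mcm3, Pcna and Pola2 was not tested. Mcm4 was not called (-0.15 ± 0.08). Without miR-15a library b, 5 members were called higher, and the calls of Mcm5, Pola2, Pold1 and Pcna were lost (adjusted p up to 0.11). The call of Mcm5 was lost in 7 of 16 alternatives in all: a single variance prior, the 2-group fit, and without either quiescent library, activated library b or either miR-15a library (adjusted p up to 0.19). Pold1 was also not called without either activated library or miR-15a library a, and Pola2 not without either activated library (adjusted p up to 0.10). Rpa2 was not called without activated library a or miR-15a library a (adjusted p up to 0.056).

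**Figure D5:**
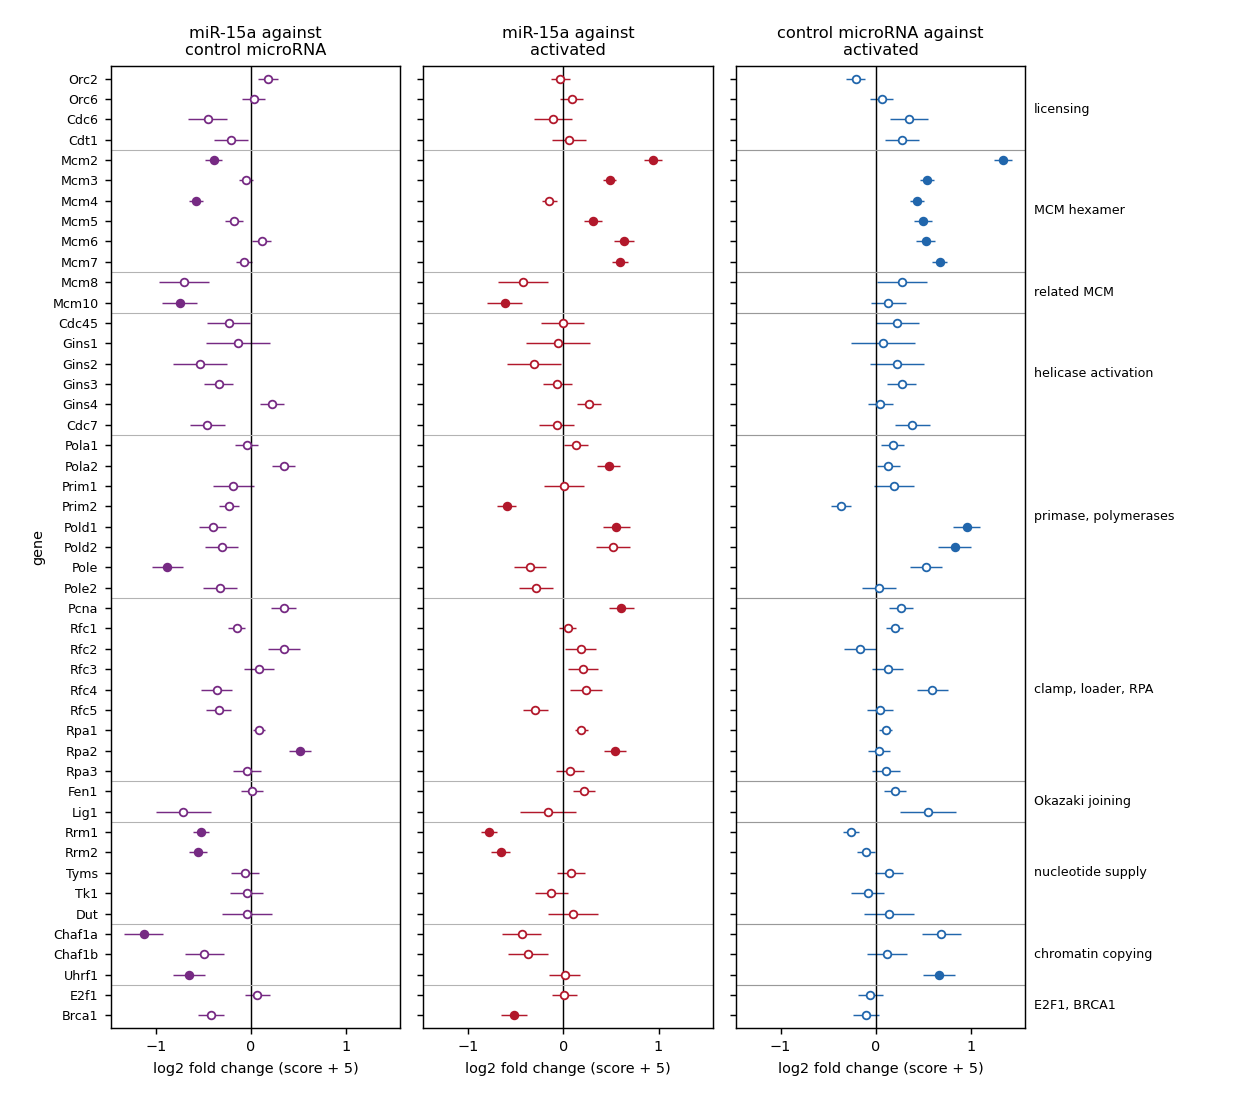
Log2 fold change of each of 47 replication genes in 3 comparisons: miR-15a against the control microRNA, miR-15a against activated cells and the control microRNA against activated cells. Bars are 1 SE, filled points were called (adjusted p under 0.05, limma) and open points were not. Mcm2 is at -0.39, 0.94 and 1.34, and Rrm1 at -0.53, -0.78 and -0.26.

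Against quiescent cells, most replication genes stayed high in both microRNA groups. With miR-15a 32 members were higher and 4 lower, against 37.1% called higher and 34.4% called lower over all genes. With the control microRNA 35 were higher and 3 lower, against 40.7% and 33.0%. The medians were 0.72 and 0.85, beside 0.63 for activated cells, and all 3 comparisons share the quiescent libraries. Mcm3, Pcna and Pola2 were lower than in quiescent cells in all 3. Cdt1 was lower with miR-15a as well, at 137 and 94 (log2 fold change -0.60 ± 0.18, adjusted p = 0.018), a call lost without either quiescent library or miR-15a library b (adjusted p up to 0.089). Mcm10, at 36 and 28 with miR-15a against 32 and 37 in quiescent cells, was not called (-0.10 ± 0.18). Chaf1b was at 62 and 51 against 38 and 56 and was not called either (0.26 ± 0.21).

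Beside the members, mitotic genes were lower with miR-15a in larger number. Of 30, 14 were lower than with the control microRNA and 20 lower than in activated cells, and none was higher, against 15.4% and 21.6% of all genes called lower. Mki67, the proliferation antigen, was at 475 and 370 with miR-15a, at 824 and 870 in control microRNA libraries and at 870 and 881 in activated cells. Top2a, which is on both lists, was at 920 and 830, 1506 and 1282, and 1772 and 1810. Anln, a scaffold of the cleavage furrow, was at 533 and 489, 842 and 813, and 1308 and 1332. Its log2 fold change against activated cells was -1.36 ± 0.12 for miR-15a and -0.67 ± 0.12 for the control microRNA, both called. Of 44 further replication factors 7 were lower and 1, Dck, higher than with the control microRNA, a share of lower calls near the 15.4% of all genes. Asf1b, a histone chaperone, was lower by 0.79 ± 0.16, Ticrr, which helps fire origins, by 0.80 ± 0.16, and Clspn, a checkpoint mediator, by 0.99 ± 0.21. Of 20 replication stress genes 5 were lower, beside the same 15.4%, Chek1 by 0.31 ± 0.08 and Brca2 by 0.58 ± 0.13.

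Regulators of the G1/S step moved both ways. Of 29, 10 were lower and 4 higher with miR-15a than with the control microRNA, against 15.4% and 14.4% of all genes. E2f7, a repressing E2F, was at 21 and 16 against 42 and 48 (log2 fold change -1.09 ± 0.18, adjusted p = 0.0047). Cdkn1c was at 31 and 16 against 1 and 2 (2.08 ± 0.29), well under its quiescent 111 and 134. Cdkn1b, the inhibitor p27, was lower, at 152 and 166 against 250 and 262 (-0.67 ± 0.09, adjusted p = 0.0019), and it lay higher with the control microRNA than in activated cells by 0.48 ± 0.09. Cdk4, Rb1 and Ccnd1 were the other three called higher, by 0.44 ± 0.08, 0.30 ± 0.06 and 0.25 ± 0.06. Ccnd1 was at 3168 and 3204 with miR-15a and at 2670 and 2700 with the control microRNA. Ccne1 was at 141 in both miR-15a libraries and at 163 and 156 with the control microRNA, and was not called (-0.17 ± 0.12). Whether either change is a direct effect of miR-15a was not tested.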

How the data were processed

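RNA was measured in 8 libraries (4 groups of 2) made with a TruSeq kit and read single-end on a NextSeq, per the labels. STAR, Subread, featureCounts and mm10 are named in the submitters' processing notes, and versions and settings are not given in the sources used here. The deposited values were taken as a normalized score: the 910 distinct whole numbers of one library recur in each of the others, and totals lie between 10193036 and 10234768. No counting interval is given, since library depth is unknown, and every column of per-sample values was used.

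Limma 3.58.1 (R 4.3.3) was fitted to log2(score + 5) with 4 group means over all 8 libraries, 4 residual degrees of freedom, a mean-dependent variance prior and Benjamini-Hochberg adjustment over 13150 genes. Simulated tables with known changes were used to test the script. For miR-15a against the control microRNA, 50.9% of simulated log2 changes of 1 and 95.3% of those of 2 were called over 5 tables. False calls were 5.14 per 100. Each simulated table held 200 changed genes among 12778 to 12805, drawn independently of each other. In the data 1897 genes were called higher and 2029 lower, so these rates may not carry over. A member that was not called may still have changed. Libraries were not paired by replicate letter in the main fit. Deviations of same-lettered libraries correlated at -0.067 to 0.087 across genes, which cannot show whether they share an animal or culture.

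Members, lists, tests and alternatives were chosen with earlier results of these data known. All members are named. Library values are given for the 2 of each role with the smallest p in the activation and miR-15a comparisons, and for those called against the majority or not called on activation. On other lists, up to 4 genes with the smallest p and those against the majority could be named; values of any other gene were chosen after being seen. The further lists of cholangiocyte and myofibroblast markers had 2 of 6 and 14 of 15 genes measured, with summed scores of 66 to 801 and 4168 to 674261. Alternatives covered the pseudocount, filter, scaling, samples in the fit, a replicate block, the variance prior and each library left out. Proteins were not analysed here.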

Additional observations from a re-analysis of the deposited data

How the results depend on the processing

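Of the members called in the activation, miR-15a against control, miR-15a against activated and control against activated comparisons (35, 9, 14 and 9), 26, 4, 7 and 1 were called in all 16 alternatives, and none reversed in any. With median-ratio scaling 2 members were higher with miR-15a than with the control, as with a single variance prior (2). Median-ratio scaling gave 3 members lower with miR-15a than in activated cells and 1644 genes in all. It gave 494 genes lower with the control than in activated cells, and no filter gave 1630. Over all genes it changed the split of miR-15a against the control from 1897 higher and 2029 lower to 2311 and 1584, and of the control against activated cells from 944 and 869 to 1371 and 494. Fitted on the compared groups alone, 5 members were lower with miR-15a than with the control (1175 genes higher and 918 lower in all), 3 lower with miR-15a than in activated cells, and 3 higher with the control than in activated cells (158 genes higher and 118 lower in all). With single libraries left out, 3 to 6 members fell on activation. Against the control microRNA, 0 to 2 members were higher and 6 to 10 lower with miR-15a, and 1065 to 1922 genes were lower in all. Against activated cells, 5 to 10 members were higher and 3 to 5 lower with miR-15a, with 1129 to 2858 genes lower in all, and 3 to 9 members were higher with the control, with 365 to 1007 genes higher and 138 to 676 lower in all. A member lower with the control than in activated cells appeared (1) with a pseudocount of 20, no filter, a filter at 50, a single variance prior and the replicate block. The replicate block changed no other count of members by over 1.5 times, and left 4 of 5 members lower with miR-15a than in activated cells. The promoter share was 20% before the start only, and the seed share 4.26% with a following A; the cause of the other changes was not tested.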
